A study of Danio rerio with 25 samples.

Results

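Brain small RNA of zebrafish (Danio rerio) aged 36 months was compared with that of fish aged 6 months, in 5 libraries of each age out of 25 libraries in the series. Libraries were chosen by their age label alone (3 years and 6 months), and all 217 miRNA names of the deposited count table were then described. The 36-month fish were males of strain AB JxTü carrying Tg(pu.1:GFP), and the 6-month fish were males of AB JxTü with no transgene named. The pu.1 promoter is known to drive expression in myeloid cells, and whether the transgene was heterozygous or homozygous is not stated. Since no 36-month fish lacked the transgene and no 6-month fish carried it, age and line cannot be told apart in any value of this comparison. Each 6-month title carries 2 numbers and each 36-month title carries 1, with no statement of what the numbers stand for. The other ages in the series were 12, 24 and 42 months, also with 5 male AB JxTü libraries each. Of these, the 12-month fish carried Tg(flk:mCherry), the 42-month fish Tg(wt1a:GFP), and no transgene is named for the 24-month fish. No date or batch is given for any library.

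A miRNA is cut from a hairpin precursor into a short strand that guides Argonaute proteins to messenger RNAs carrying a match to its seed, and so lowers their translation or stability. In vertebrate brain some miRNAs are typical of neurons (miR-9, miR-124, miR-128), others of oligodendrocytes (miR-219, miR-338), vessels (miR-126) or blood (miR-144, miR-451). A whole-brain library mixes all of these, so that fewer cells of a type and less of a miRNA per cell cannot be told apart. The counts are per hairpin, with no arm of the hairpin named, so a change in a count cannot be assigned to a strand.

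The 6-month libraries held 3983783 to 8072968 miRNA counts (median 4809998) and the 36-month libraries 5237318 to 20924118 (median 7239557). Mean totals differed by 4091109 counts, which was within the spread of libraries (two-sided exact permutation test, p = 0.151), and by 1328195 without 36-month replicate 3 (p = 0.278). Between 201 and 206 miRNAs were detected in each library of either age, and the 10 most abundant took 59.7% to 63.1% of counts at 6 months and 59.8% to 61.8% at 36 months. The neuronal miR-9, miR-124 and miR-128 were abundant in all 10 libraries, as the brain label implies (miR-124 from 4107 to 6740 CPM at 6 months and from 5631 to 10257 CPM at 36 months, where CPM are counts scaled to the TMM-adjusted library size). Some libraries stood apart before any test. The miR-200 family, typical of epithelia, summed to 9033, 1301, 866, 472 and 8107 CPM in 6-month replicates 1 to 5 and to 8123, 211, 135, 287 and 139 CPM in 36-month replicates 1 to 5. Sums over a list are scaled here and below by library totals, and single miRNAs by TMM. Replicate 1 of the 36-month group alone of its age reached the level of 6-month replicates 1 and 5. Its log2 levels had a median correlation of 0.943 with the other 36-month libraries, whose own medians were 0.979 to 0.981. Skin miRNAs (miR-203a, miR-203b, miR-205) summed to 3861 CPM in 6-month replicate 2 and to at most 1397 CPM in the other 9 libraries.

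Of the miRNAs with enough counts to test (197), 31 differed between 36 and 6 months (15.7%) at an adjusted p under 0.05 (edgeR quasi-likelihood F test, Benjamini-Hochberg over the 197). Of these, 16 were higher at 36 months (8.12%) and 15 lower (7.61%). The median log2 change of all 197 was 0.03, with quartiles at -0.33 and 0.23, and 67 had an unadjusted p under 0.05. Most called changes were small: 9 of the 31 exceeded a 2-fold difference. The calls spread over the range of abundance, with 13 of 79 miRNAs of at least 1000 CPM, 12 of 70 between 100 and 1000 CPM, 5 of 26 between 10 and 100 CPM and 1 of 22 under 10 CPM. For 23 of the 197 (11.7%) the 5 libraries of an age lay wholly above the 5 of the other, 10 with 36 months above (5.08%) and 13 with 36 months below (6.6%), and 17 of these 23 were called. The balance of higher and lower depended on scaling: scaled by library totals alone, 38 were called, of which 12 rose and 26 fell. Without 36-month replicate 1 the count rose to 47, with 17 higher and 30 lower.

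**Figure D1:**
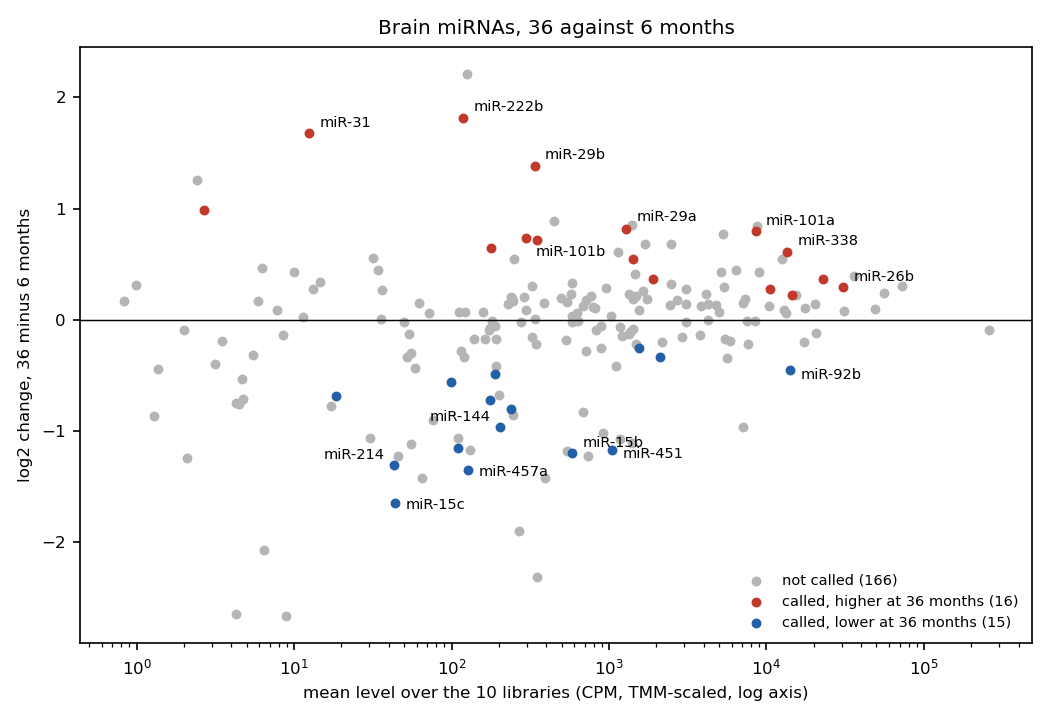
Each point is 1 of the 197 tested miRNAs, with its mean level over the 10 libraries of 6 and 36 months in CPM on the x axis (log scale) and its log2 change, 36 minus 6 months, on the y axis. Red and blue points are the 16 miRNAs called higher and the 15 called lower at 36 months, and they occur at low and at high abundance.

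The miR-29 family, which represses collagens and other matrix genes in mammals, was higher at 36 months in both members. miR-29a measured 984, 872, 891, 1017 and 912 CPM at 6 months and 1439, 1683, 1923, 1670 and 1519 CPM at 36 months. No 36-month library overlapped the 6-month range, and the level was 1.76-fold higher (log2 change 0.82, SE 0.10, adjusted p = 7.12e-06). miR-29b measured 187, 177, 171, 227 and 171 CPM at 6 months and 414, 688, 345, 657 and 337 CPM at 36 months. It was 2.61-fold higher (log2 change 1.39, SE 0.22, adjusted p = 7.26e-05), again without overlap, and its 36-month libraries spread widely, with replicates 2 and 4 well above replicates 3 and 5. The 2 hairpin copies of miR-29b had log2 changes of 1.34 and 1.42, but copies can share reads, so these values are not independent.

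Both miR-101 members, known in mammals for repressing the chromatin enzyme EZH2, were higher too. miR-101a measured 6046, 5876, 5944, 7872 and 5442 CPM at 6 months and 9840, 11177, 12661, 10635 and 9797 CPM at 36 months. All 36-month libraries lay above all 6-month libraries, although 6-month replicate 4 stood well above its group, and the difference was 1.74-fold (log2 change 0.80, SE 0.14, adjusted p = 2.49e-04). miR-101b went from 221 ± 29.8 CPM (SD, n = 5) to 369 ± 53.8 CPM (log2 change 0.74, SE 0.13, adjusted p = 2.67e-04), also without overlap.

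miR-338, which promotes oligodendrocyte maturation together with miR-219, rose while its partner did not pass the test. miR-338 measured 10355, 10333, 10667, 12316 and 9820 CPM at 6 months and 11191, 16953, 18120, 17955 and 17696 CPM at 36 months. Replicate 1 lay within the 6-month range and the other 4 libraries lay above it (log2 change 0.61, SE 0.11, adjusted p = 2.49e-04). With the log2 sums of the miR-200 family and of the skin miRNAs as covariates (the epithelial covariates) the change was 0.40 (adjusted p = 0.00146). miR-219 measured 3979 to 5471 CPM at 6 months and 3820 to 5822 CPM at 36 months (log2 change 0.14, SE 0.11, adjusted p = 0.369). The difference between these 2 changes was not tested.

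Among miRNAs studied in vessels and lipid metabolism, miR-27b and miR-27d were called higher, while the other 6 tested members of the list of miR-23, miR-24 and miR-27 were not called. miR-27b went from 20060 ± 977 to 25821 ± 3411 CPM, with only 36-month replicate 1 (21060 CPM) inside the 6-month range (log2 change 0.36, SE 0.08, adjusted p = 0.00146; 0.24 with the epithelial covariates). miR-27d measured 979 to 1309 CPM at 6 months, 847 CPM in 36-month replicate 1 and 1793 to 1992 CPM in the other 36-month libraries (log2 change 0.55, SE 0.18, adjusted p = 0.0427). Its call was lost without any 1 of 6-month replicates 1, 3, 4 and 5 or, at 36 months, any of replicates 2 to 5 (adjusted p 0.0597 to 0.111). With the covariates its change was 0.22 (adjusted p = 0.389), and with library totals only 0.45 (0.0998). The list had a median log2 change of 0.10, beside 0.03 for all miRNAs, and with library totals only that median was just below 0.

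miR-222b and miR-31 had the largest rises by fold of the 16 miRNAs called higher. miR-222b belongs to a family that represses the cell-cycle inhibitor p27 in mammals, and measured 56.1, 64.5, 39.6, 45.7 and 54.5 CPM at 6 months and 60.0, 376, 220, 148 and 116 CPM at 36 months. Replicate 1 of the 36-month group lay at the 6-month level and the other 4 above it (3.52-fold higher, log2 change 1.82, SE 0.34, adjusted p = 4.68e-04). Its relatives did not pass the test: miR-221 had a log2 change of 0.55 (adjusted p = 0.101) and miR-222a of 0.23 (adjusted p = 0.410). miR-31 is scarce, at 7.98, 6.50, 3.08, 4.97 and 6.99 CPM at 6 months and 16.04, 31.1, 20.4, 17.5 and 9.89 CPM at 36 months. The ranges did not overlap (log2 change 1.68, SE 0.32, adjusted p = 5.53e-04). Whether miR-221, miR-222a and miR-222b share reads was not examined. How the authors' counting divided shared reads is not given in the sources used here.

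Of 8 tested leukocyte and inflammation miRNAs only miR-146b, which damps innate immune signalling, was called, beside 15.7% of all miRNAs. It measured 131, 200, 125, 126 and 114 CPM at 6 months and 230, 223, 245, 171 and 220 CPM at 36 months, so that 6-month replicate 2 overlapped 36-month replicate 4 (log2 change 0.65, SE 0.16, adjusted p = 0.00773). miR-21, raised in many inflamed tissues, reached 63836 CPM in 36-month replicate 2 against 30695 to 41378 CPM in the other 4 and 27058 to 32736 CPM at 6 months. Its log2 change of 0.40 (SE 0.15) did not pass the test (adjusted p = 0.0761). miR-146a measured 622 to 1180 CPM at 6 months, 519 CPM in 36-month replicate 5 and 1676 to 2468 CPM in the other 36-month libraries (log2 change 0.85, SE 0.37, adjusted p = 0.107). Without that replicate miR-146a (log2 change 1.09, adjusted p = 0.0236) and miR-21 (0.48, adjusted p = 0.0389) were called. Leaving out the lowest 36-month library raises the change of miR-146a by construction, so its call there is no separate support for a rise. miR-21 was called in 2 of 20 alternatives. The leukocyte miR-142a, miR-150 and miR-223 were not called (adjusted p from 0.393 to 0.490). The median log2 change of the 8 was 0.37.

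Further miRNAs were called higher. miR-1388 went from 264 ± 48.0 to 435 ± 62.5 CPM without overlap (log2 change 0.72, SE 0.18, adjusted p = 0.00800). miR-125c, a relative of the worm developmental regulator lin-4, went from 1649 ± 114 to 2133 ± 183 CPM without overlap (0.37, SE 0.09, adjusted p = 0.00800), and was not called with the epithelial covariates (0.33, adjusted p = 0.0507). miR-26b, which represses a phosphatase of the neuronal gene repressor complex in zebrafish, went from 27567 ± 1666 to 33782 ± 1824 CPM without overlap (0.29, SE 0.08, adjusted p = 0.0170). With library totals only it was not called (0.20, adjusted p = 0.109), nor without the libraries rich in epithelial miRNAs (0.28, adjusted p = 0.180). The latter fit, here and below, keeps only 2 libraries at 6 months and 4 at 36 months, so a call can be lost there through fewer libraries. miR-26a, a relative of miR-26b, had a log2 change of 0.08 (adjusted p = 0.327). miR-100 had a log2 change of 0.28 (adjusted p = 0.0153), which was 0.18 with library totals only and 0.17 with the epithelial covariates, where it was not called (adjusted p = 0.109). Without the libraries rich in epithelial miRNAs it was not called either (0.22, adjusted p = 0.0588). The scarce miR-202, known from gonads, went from 1.76 ± 0.883 to 3.56 ± 1.21 CPM (log2 change 0.98, adjusted p = 0.0494). That call was lost without 6-month replicate 1, 4 or 5, or without any 1 of 36-month replicates 2 to 5 (adjusted p 0.0540 to 0.122), and in 7 other alternatives (0.0510 to 0.167).

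**Figure D2:**
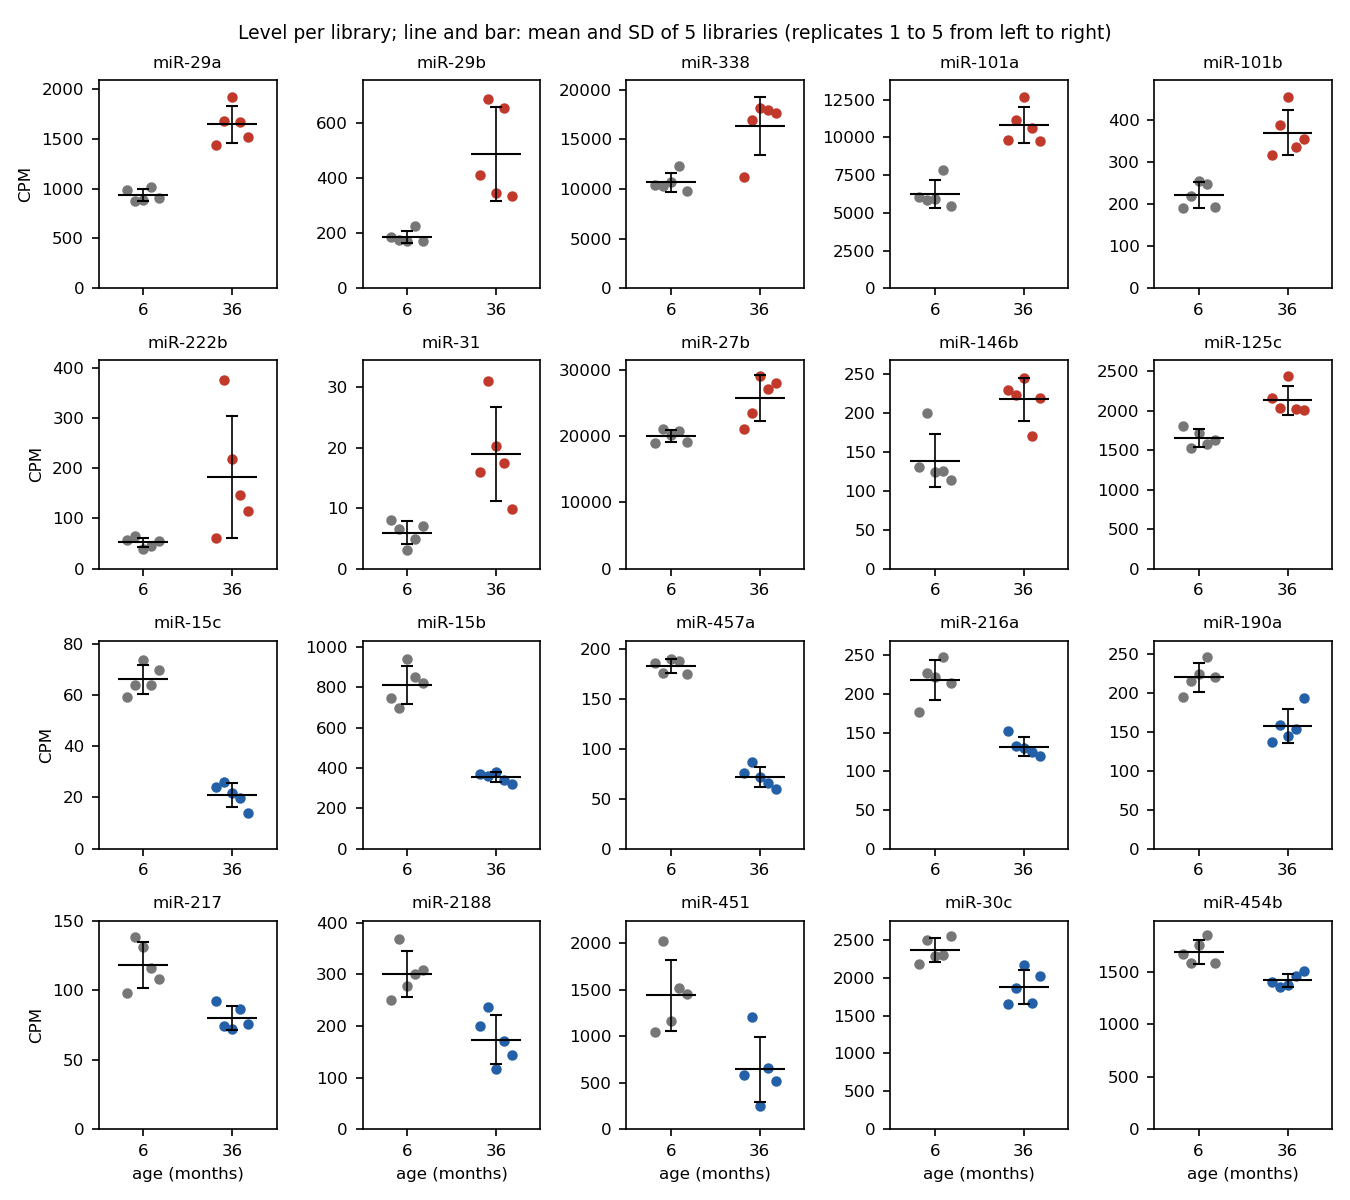
Level in CPM of each library for 10 of the miRNAs called higher (red at 36 months) and 10 called lower (blue at 36 months) with the smallest adjusted p; points from left to right are replicates 1 to 5, the line is the mean and the bar the SD of 5 libraries. miR-15b, miR-15c and miR-457a show no overlap between the ages, and 36-month replicate 1 lies at the 6-month level for miR-338 and miR-222b.

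The 2 deepest falls among called miRNAs, miR-15c and miR-457a, were in the family of miR-15, miR-16 and miR-457, which represses BCL2 and cyclins in mammals. miR-15c measured 59.4, 63.8, 73.6, 63.7 and 69.9 CPM at 6 months and 23.9, 26.0, 21.8, 19.8 and 13.9 CPM at 36 months, 3.13-fold lower (log2 change -1.65, SE 0.21, adjusted p = 7.12e-06). miR-457a measured 186, 176, 190, 189 and 175 CPM at 6 months and 75.9, 86.9, 71.5, 65.8 and 60.2 CPM at 36 months, 2.54-fold lower (-1.35, SE 0.18, adjusted p = 1.31e-05). miR-15b measured 749, 698, 942, 851 and 820 CPM at 6 months and 370, 358, 382, 341 and 322 CPM at 36 months, 2.29-fold lower (-1.19, SE 0.16, adjusted p = 1.02e-05). None of the 3 overlapped between ages. The other 5 members did not pass the test. miR-15a had a log2 change of 0.61 (SE 0.25, adjusted p = 0.0966), miR-16b of -0.02, miR-16c of 0.26 and miR-457b of 0.28. miR-16a measured 65.7 to 70.9 CPM at 6 months and 26.2 to 63.5 CPM at 36 months, below in every library yet not called (-0.43, SE 0.24, adjusted p = 0.210). The summed level of all 8 members ranged from 6414 to 7917 CPM at 6 months and from 4438 to 8349 CPM at 36 months.

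miR-216a and miR-217, which are known from the exocrine pancreas of mammals, fell at low variance. miR-216a measured 177, 227, 221.6, 247 and 214 CPM at 6 months and 152, 133, 131, 125 and 119 CPM at 36 months (log2 change -0.72, SE 0.12, adjusted p = 9.79e-05). miR-217 measured 98.3, 138, 131, 116 and 108 CPM at 6 months and 92.2, 74.5, 71.9, 86.5 and 75.7 CPM at 36 months (-0.56, SE 0.11, adjusted p = 0.00107). Neither overlapped between ages. Their relative miR-216b went from 786 ± 92.7 to 647 ± 80.2 CPM and was not called (-0.28, adjusted p = 0.0820), though it was with library totals only (-0.37, adjusted p = 0.0273). miR-190a was 1.40-fold lower, at 194 to 246 CPM against 137 to 194 CPM, with ranges that touched but did not overlap (-0.48, SE 0.09, adjusted p = 5.53e-04). miR-2188 fell from 300.7 ± 44.2 to 173 ± 47.1 CPM without overlap (-0.80, SE 0.18, adjusted p = 0.00244). Without the libraries rich in epithelial miRNAs its change was much the same, with a larger SE, and was not called (-0.77, SE 0.27, adjusted p = 0.0706).

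The red blood cell miRNAs, which are co-transcribed and needed for erythroid maturation, were both lower. miR-451 measured 1045, 2025, 1165, 1513 and 1455 CPM at 6 months and 585, 1202, 246, 656 and 521 CPM at 36 months. Only 36-month replicate 2 lay within the 6-month range (2.24-fold lower, log2 change -1.17, SE 0.30, adjusted p = 0.00874). miR-144 went from 269 ± 69.9 to 138 ± 76.5 CPM (-0.97, SE 0.29, adjusted p = 0.0266). The call of miR-144 was lost when replicate 2 at 6 months or replicate 3 or 5 at 36 months was left out (adjusted p 0.0720 to 0.0879). In a fit of these 10 libraries alone neither was called (adjusted p 0.0690 and 0.0935), nor was either without the libraries rich in epithelial miRNAs (0.167 and 0.258). With the epithelial covariates miR-144 was not called, while miR-451 was. The sum of both miRNAs ranged from 1299 to 2711 CPM at 6 months and from 319 to 1506 CPM at 36 months, and the part played by blood left in the tissue was not tested.

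The mesenchymal miR-214 was lower at 36 months and was highest in the libraries rich in epithelial miRNAs. It measured 58.6, 98.9, 34.6, 41.2 and 73.6 CPM at 6 months and 47.0, 29.1, 15.5, 16.03 and 16.5 CPM at 36 months (log2 change -1.31, SE 0.43, adjusted p = 0.0427). In both groups the libraries rich in miR-200 or skin miRNAs (6-month replicates 1, 2 and 5 and 36-month replicate 1) held the highest values. With those lists as covariates the change was -0.70 (adjusted p = 0.145), and the call was also lost without 6-month replicate 1, 2 or 5 or any 1 of 36-month replicates 2 to 5 (adjusted p 0.0589 to 0.128). Its cluster neighbour miR-199 was not called (-1.10, SE 0.47, adjusted p = 0.0997), and was without 36-month replicate 1 (-1.51, adjusted p = 0.0228). Leaving out that library deepened the fall of miR-199, so the call gained there is no separate support for it. The remaining tested members of the mural and mesenchymal list hardly changed and were not called. These were miR-143 (0.09, adjusted p = 0.650) and miR-145 (-0.01, adjusted p = 0.964). miR-34b, a p53 target in mammals that is abundant in ciliated cells, measured 66.1 to 259 CPM at 6 months and 41.4 to 142 CPM at 36 months (-1.16, SE 0.35, adjusted p = 0.0255), with 36-month replicate 1 the highest of its age. Its change was -0.75 with the covariates (adjusted p = 0.0635), and it was not called when 6-month replicate 1 or 5, or 1 of 36-month replicates 2 to 5, was left out (adjusted p 0.0540 to 0.0939). miR-34c had a similar change that was not called (-1.06, SE 0.39, adjusted p = 0.0707), and miR-34a one of -0.22.

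Of 15 tested members of the miR-17-92 group and its paralogs, known for promoting proliferation, 3 were called (1 higher and 2 lower), beside 15.7% of all miRNAs. miR-92a went from 13382 ± 404 to 15600 ± 2094 CPM (log2 change 0.22, SE 0.07, adjusted p = 0.0427) and miR-92b from 16364 ± 2371 to 11944 ± 2855 CPM (-0.45, SE 0.15, adjusted p = 0.0427). miR-92b measured 10432, 9051 and 10205 CPM in 36-month replicates 1, 2 and 4, below all 6-month libraries, and 14857 and 15176 CPM in replicates 3 and 5, inside their range. miR-363 fell from 22.8 ± 3.33 to 14.2 ± 4.70 CPM (-0.68, SE 0.21, adjusted p = 0.0296). The median log2 change of the 15 was -0.02. With library totals only, 0 were called higher and 3 lower. All 3 calls were near the threshold. That of miR-92a was lost when any 6-month library but replicate 4 or any of 36-month replicates 1 to 3 was left out (adjusted p 0.0506 to 0.150) and with library totals only (0.12, adjusted p = 0.186). That of miR-92b was lost when replicate 1, 3 or 4 at 6 months or replicate 1, 2 or 4 at 36 months was left out (0.0713 to 0.111), and that of miR-363 when replicate 3 or 4 at 6 months or replicate 2, 3 or 5 at 36 months was (0.0631 to 0.0811). Leaving out the libraries rich in epithelial miRNAs, the change of miR-363 was -1.06 (adjusted p = 0.0106) and miR-92a was not called (0.307). With the epithelial covariates miR-363 (0.1003) and miR-92a (0.109) were not called.

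Small falls were called for miR-30c and miR-454b. miR-30c went from 2366 ± 156 to 1876 ± 226 CPM without overlap (log2 change -0.33, SE 0.10, adjusted p = 0.0223), and the other 4 tested members of the miR-30 family were not called, with a family median of -0.19. With library totals only, 4 of the 5 were called lower (median -0.29). Its call was lost when replicate 2 or 5 at 6 months or replicate 2 or 4 at 36 months was left out (adjusted p 0.0521 to 0.0725), and without the libraries rich in epithelial miRNAs (-0.23, adjusted p = 0.276). miR-454b went from 1690 ± 114 to 1418 ± 63.5 CPM without overlap (-0.25, SE 0.07, adjusted p = 0.0227), and was not called with replicate 4 at 6 months or replicate 2 at 36 months left out (0.0589 to 0.0623), without the libraries rich in epithelial miRNAs (0.0706) or with the epithelial covariates (0.0803). The 7 other tested members of its family list, which joins miR-454 with miR-301 and miR-130, were not called.

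Of 28 lists of families, cell types and tissues, 12 had no called member. Over all 197 tested miRNAs 15.7% were called, and no list here or above was tested against that share. The most abundant miRNAs at 6 months were among those not called: miR-181a (266063 ± 21456 CPM at 6 and 250247 ± 17625 CPM at 36 months, log2 change -0.09, SE 0.09), miR-128 (0.30, SE 0.13, adjusted p = 0.0997), let-7a (0.24, SE 0.13) and miR-9 (0.10, SE 0.08). Their levels are sums over numbered copies that can share reads, so levels and order of abundance may be inflated by the number of copies. None of 16 tested neuronal miRNAs was called, with changes from -0.34 for miR-153c (adjusted p = 0.0700, and 0.0307 when hairpin entries were tested separately) to 0.44 for miR-124 (adjusted p = 0.120) and a median of 0.12. Without the libraries rich in epithelial miRNAs miR-153c was called lower (-0.53, adjusted p = 0.0440). With DESeq2 size factors, and with library totals only, 1 of the 16 was called lower. None of 10 let-7 members was called (median 0.16). The activity-regulated miR-132 and miR-212 had a median of 0.17, and the endothelial miR-126a and miR-126b had changes of -0.13 and -0.20. The muscle list had a median of -0.92 over 6 members, none called. Its lowest values came from miR-206 (-2.66, SE 1.02, adjusted p = 0.0805) and miR-133c (-2.64, SE 0.98, adjusted p = 0.0707), and 6-month replicate 2 held 55.1 CPM of miR-206 beside 1.45 to 12.3 CPM in the other 6-month libraries. The Hox-linked miR-10 family spread over a wide range at 36 months: miR-10b measured 9595, 11746, 1291, 12715 and 20854 CPM in replicates 1 to 5 and 2840 to 8708 CPM at 6 months (0.84, SE 0.44, adjusted p = 0.181).

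**Figure D3:**
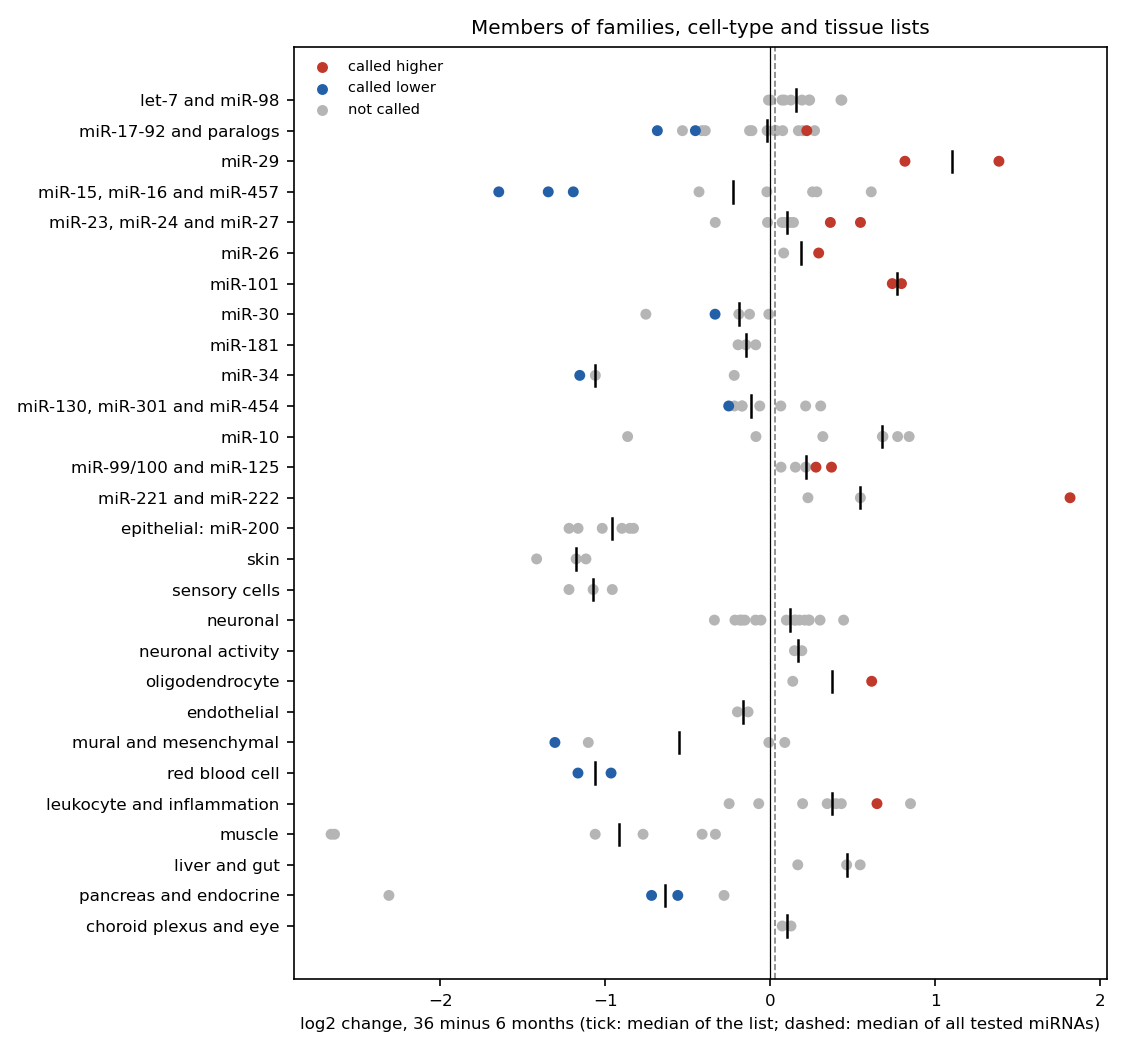
Each point is a tested member of a list of families, cell types or tissues, placed by its log2 change, 36 minus 6 months; red and blue points were called higher and lower, the tick is the median of the list and the dashed line the median of all 197 miRNAs. Both miR-29 and both miR-101 members lie to the right, 3 of 8 members of the miR-15 and miR-16 family lie far to the left, and the neuronal members lie on either side of 0.

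Epithelial, skin and sensory-cell miRNAs were not called between the ages with all libraries included. For the miR-200 family and the sensory-cell list, 36-month replicate 1 held about as much as the richest 6-month libraries. Its skin miRNAs summed to 1109 CPM, less than in 6-month replicates 1, 2 and 5. The 6 tested members of the miR-200 family had log2 changes from -1.22 to -0.83 (miR-429a lowest, adjusted p = 0.444), the 3 skin members from -1.42 to -1.12 and miR-182, miR-183 and miR-96 from -1.22 to -0.96. miR-183, of hair cells and photoreceptors, measured 2951, 856, 379, 805 and 2989 CPM at 6 months and 2856, 245, 74.3, 293 and 320 CPM at 36 months. Without 36-month replicate 1 all 6 miR-200 members were called lower, from -3.68 for miR-200c (SE 0.90) to -6.29 for miR-429b (SE 1.55, adjusted p = 0.00440). miR-183 (-2.77, adjusted p = 0.00183), miR-182 and miR-96 were called lower then too, and the skin miRNAs were not. Replicate 1 held the highest 36-month sums of the miR-200 and sensory-cell lists. Leaving it out deepens these falls by construction, so the calls gained there are no separate support for a fall. With the 7 libraries of the series above 2000 CPM in either epithelial list left out, which leaves 2 libraries at 6 months and 4 at 36 months, 29 miRNAs were called (15 higher and 14 lower) and 21 of them were among the 31. The part of epithelial content in the other calls was not tested beyond these fits.

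**Figure D4:**
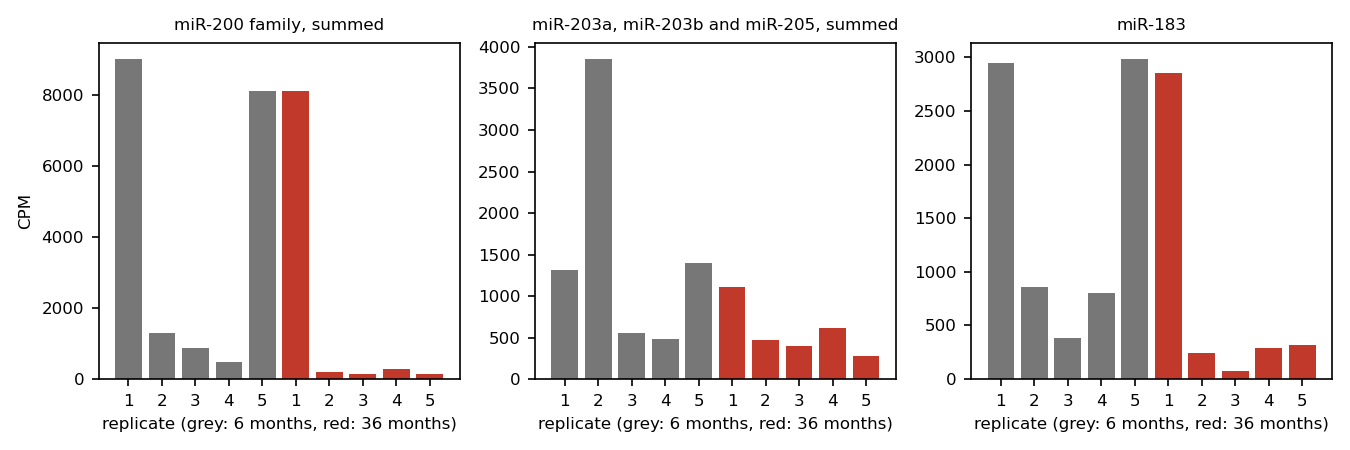
Bars give the summed level of the miR-200 family, of the skin miRNAs, and the level of miR-183 in CPM for replicates 1 to 5 at 6 months (grey) and 36 months (red). Replicate 1 of the 36-month group stands at 8123 CPM of miR-200 family beside 135 to 287 CPM in the other 36-month libraries.

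Neighbouring hairpins were compared next, with clusters taken as hairpins within 10 kb in RefSeq's GRCz12tu table, where 319 of 346 hairpin entries were matched by name. Tested singly, 36 of 269 hairpins were called (13.4%), and 17 of the 105 in clusters (16.2%). Of 44 clusters with at least 2 tested hairpins, 13 held a called hairpin, 4 held several in the same direction and 0 held calls in both directions, and neighbours may share a transcript. Among these, miR-15b and miR-457a fell together (-1.22 and -1.37 at hairpin level), as did miR-144 with miR-451 and miR-30c with miR-30e (whose summed name was not called, adjusted p = 0.0707), and miR-29a rose with its neighbouring miR-29b copy. Neighbours could also differ in whether they were called. Next to miR-15c (-1.67) lay miR-16a (-0.46, not called). Within the miR-17-92 cluster the miR-92a-1 hairpin rose (0.29, SE 0.07, adjusted p = 0.00363) while its 5 neighbours, from -0.04 to 0.24, were not called. The highest of these, miR-18a (0.24, SE 0.13), was close to miR-92a-1, and differences between neighbours were not tested. The other copy, miR-92a-2, in a cluster with miR-18b and miR-17a, had a change of 0.02 (SE 0.06). The difference between the copies was not tested. How reads that match both copies were treated is not given, so the small rise of the summed name cannot be assigned to a locus. Copies of a name can share reads. For 31 of 46 names with several tested copies, the levels were within 10% of equal at 6 months. Likeness between copies is therefore no sign that separate loci changed alike. The median range of log2 change between copies was 0.03. The widest was that of miR-455, where copy 2 went from 36.6 to 9.13 CPM (-2.01, SE 0.44, adjusted p = 0.00248) and copy 1 from 214 to 146 CPM (-0.55, not called).

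The 36-month libraries were also tested against the mean of 24 and 42 months, with no 6-month library in the contrast. This asks where they stood apart from neighbouring ages rather than from the youngest. Among these ages only the 36-month fish carried Tg(pu.1:GFP), so age and line cannot be told apart in this contrast either. In that test 6 miRNAs passed (3.05% of those tested). Of these, 5 were above the neighbouring ages (2.54%) and 1 below (0.508%). At an unadjusted p under 0.05 there were 33. Thus 28 of the 31 miRNAs that differed from 6 months were not shown to differ from the mean of 24 and 42 months. Neither of these ages was tested alone, so a steady change from 24 to 42 months would not show in this contrast. For miR-15b the difference from those ages was -0.02 (SE 0.14), for miR-457a -0.01 (SE 0.16), for miR-216a -0.02 (SE 0.10) and for miR-101a 0.12 (SE 0.12). For miR-338 it was 0.21 (SE 0.09, adjusted p = 0.245), and 0.32 without 36-month replicate 1 (adjusted p = 0.00800). Leaving out that replicate, the lowest of its age for miR-338, raises the difference by construction, so the call gained is no separate support. For miR-29b it was 0.47 (SE 0.18, adjusted p = 0.176), with means of 187, 205, 317, 488 and 389 CPM from 6 to 42 months.

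miR-31 stood apart most clearly, with 3.97 to 7.70 CPM at 24 months, 9.89 to 31.1 CPM at 36 months and 4.22 to 8.11 CPM at 42 months. No 36-month library overlapped the neighbouring ages (log2 difference 1.69, SE 0.26, adjusted p = 3.54e-04), and the call held in all alternatives in which it was tested. miR-222b differed by 1.16 (SE 0.28, adjusted p = 0.0188), but by 0.72 without 36-month replicate 2 (adjusted p = 0.125). miR-738 measured 236, 338, 30.6, 415 and 16.2 CPM at 36 months, 3.86 to 29.0 CPM at 24 months and 4.06 to 22.6 CPM at 42 months (4.03, SE 0.82, adjusted p = 0.00698). Its 36-month libraries thus fell at 2 levels, with replicates 3 and 5 near the other ages, and against 6 months (8.48 to 88.3 CPM) it was not called (log2 change 2.21, SE 1.00, adjusted p = 0.120). Against 6 months it was called with the epithelial covariates (4.05, adjusted p = 0.00695) and without the libraries rich in epithelial miRNAs (4.31, adjusted p = 0.0440). Against the neighbouring ages it was 2.63 with the covariates and not called (adjusted p = 0.0980).

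The neuronal miR-135b measured 1044 and 1028 CPM in 36-month replicates 2 and 4, 528 to 595 CPM in replicates 1, 3 and 5, and 418 to 555 CPM at 24 and 42 months (0.66, SE 0.15, adjusted p = 0.0156). Without replicate 2 or 4 it was not called (adjusted p 0.0510 to 0.0561), nor with the epithelial covariates (0.0980). miR-92b was lower than at neighbouring ages (-0.49, SE 0.13, adjusted p = 0.0480), a call lost when any 1 of 10 of the 15 libraries was left out (replicates 1, 2 and 4 at 36 months, 1, 3 and 5 at 24 months and 2 to 5 at 42 months, adjusted p 0.0604 to 0.153). miR-200c (3.08, SE 0.85, adjusted p = 0.0497) rested on 36-month replicate 1, which held 775 CPM beside 19.0 to 30.4 CPM in the others. Without that library its difference was 0.25 (adjusted p = 0.959), and its call was also lost without 36-month replicate 2, any 24-month library or 42-month replicates 2 to 5.

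**Figure D5:**
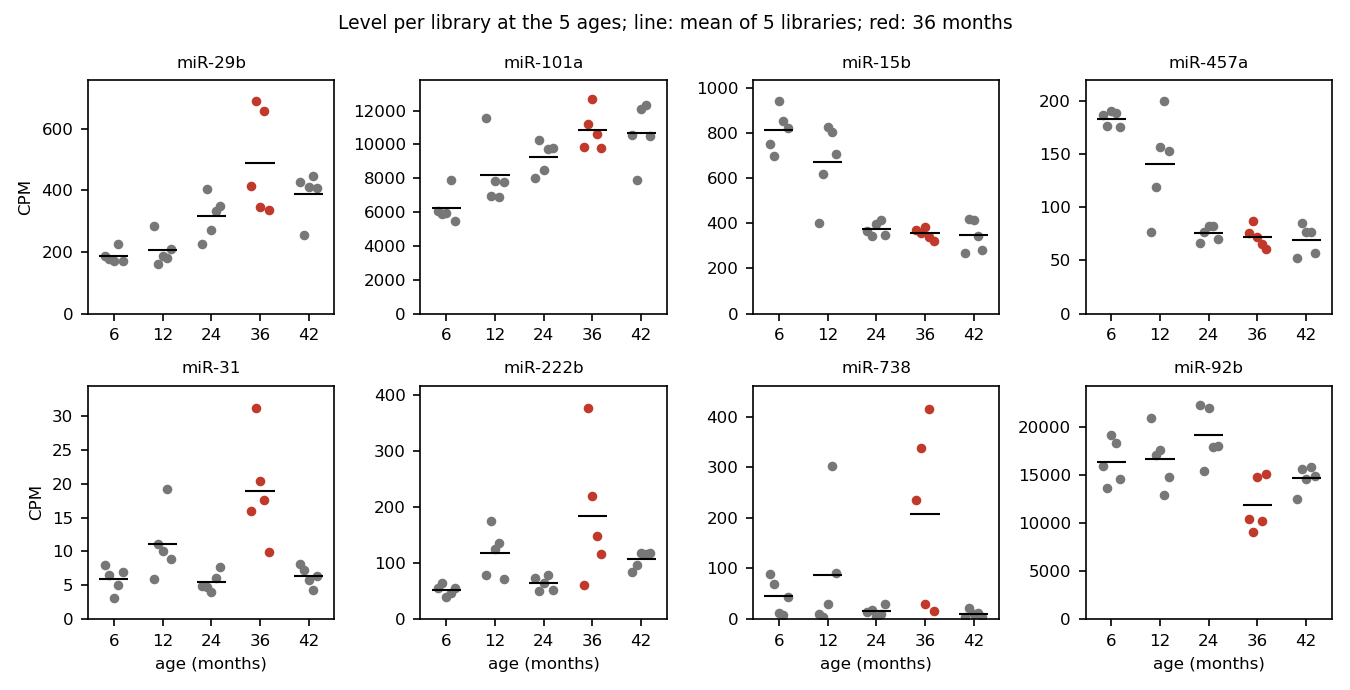
Level in CPM of 8 miRNAs in every library at 6, 12, 24, 36 and 42 months, with the mean of 5 libraries as a line and 36 months in red. miR-15b and miR-457a are at about the same level from 24 to 42 months, while miR-31 is highest at 36 months and miR-738 splits the 36-month libraries into 3 high and 2 low values.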

How the data were processed

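Small RNA libraries were made from total RNA with the Illumina TruSeq small RNA kit, per the labels' protocols. Tools listed by the submitters' processing notes, in no stated order, are SAMtools 1.3.1-9, BWA 0.7.12-r1039, CASAVA 1.8.4 and Trimmomatic 0.36. How reads that match several hairpins were treated, which program counted them, and on which annotation and genome build, is not given in the sources used here. Raw counts were deposited by the authors for 346 hairpin entries in 25 libraries, of which 17 entries total 0; columns not used numbered 0. Numbered copies were summed to 217 names, 51 of them with several copies. filterByExpr (count minimum 10, total minimum 15) kept 197 names and left out 20, whose highest count in any library was 66.

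The test was edgeR's (version 4.0.16 under R 4.3.3; TMM scaling, robust quasi-likelihood fit on all 25 libraries, contrast of 36 and 6 months). Adjusted p-values are Benjamini-Hochberg over the 197, and standard errors come from the F statistic and the log2 change. Levels are given as CPM from TMM-scaled library sizes, as mean ± SD over 5 libraries. Alternatives used DESeq2 1.42.0, limma-voom (limma 3.58.1), other scalings and filters, and left out libraries. The epithelial covariates were log2 summed CPM of the miR-200 family and of the skin miRNAs. The fit was tested on simulated data. Any 2 libraries of 6 months, and any 2 of 36 months, differed by more than counting noise. The other ages were not compared in this way, and no library of any age was merged. Replicates are numbered in order of deposit, and the sources used here do not say whether they are separate animals, so the p-values measure only spread between these libraries, which may be technical.

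The named miRNAs are the 10 called in each direction with the smallest adjusted p among those with a mean of at least 10 CPM (ties kept), the 3 largest changes in each direction, the 5 most abundant at 6 months, called members of the lists, and up to 5 in each direction from 36 months against 24 and 42 months. Further miRNAs were named to complete a family or a count after their values were seen. The miRNAs and lists were chosen with earlier results of these data known. Seed groups were not formed, since mature sequences were not used here.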

Additional observations from a re-analysis of the deposited data

Results flagged for a closer look

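In 10 of 82 groups of 5 libraries examined, 1 library stood far from the other 4, by a criterion that chance meets in about 1 of 20 groups. The groups share libraries, and miR-200c is also part of the miR-200 family sum, so they are not independent. An excess over that rate was not tested. In 36-month replicate 1 the summed miR-200 family stood at 8123 CPM (next 287 CPM) and miR-200c at 775 CPM. The same library was lowest of its age for miR-338 at 11191 CPM and miR-27d at 847 CPM, and highest for miR-34b at 142 CPM. 36-month replicate 3 had the highest total, 20924118 counts, beside 9094367 in the next. In 6-month replicate 2 the skin miRNAs summed to 3861 CPM, miR-146b stood highest at 200.2 CPM and miR-128 lowest at 52723 CPM. In 6-month replicate 4 miR-101a stood highest of its age at 7872 CPM.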

How the results depend on the processing

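Of the 31 miRNAs called in 36 against 6 months, 16 kept the call in all alternatives run (20 each, 19 for miR-31) and 15 lost it in at least 1, with none changing sign. The 16 were miR-15b, miR-15c, miR-457a, both miR-29 and both miR-101 members, miR-216a, miR-217, miR-338, miR-27b, miR-31, miR-222b, miR-190a, miR-1388 and miR-146b. The count of 31 became 41 with DESeq2, 30 with limma-voom, 27 in a fit of the 10 libraries and 23 with the epithelial covariates, and ranged from 23 to 47 when 1 library was left out. In the fit of the 10 libraries 9 of the 31 lost their call (miR-451, miR-144, miR-214, miR-34b, miR-363, miR-92a, miR-92b, miR-27d and miR-202, adjusted p 0.0624 to 0.107). Without the libraries rich in epithelial miRNAs 10 did (miR-2188, miR-451, miR-144, miR-30c, miR-454b, miR-214, miR-92a, miR-26b, miR-100 and miR-202, 0.0569 to 0.307). With the covariates 10 did (0.0507 to 0.389). The count of 6 in 36 against 24 and 42 months became 13 with DESeq2, 3 with a minimum of 10 CPM and 1 with limma-voom, where only miR-31 was left, and ranged from 2 (without 36-month replicate 2) to 12 (without 36-month replicate 5) when 1 library was left out. It was 11 without 36-month replicate 3 or 42-month replicate 1. The causes of these shifts were not tested. No paired analysis was possible because replicate numbers follow the order of deposit and pair no libraries. What depth limits was not tested.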

Other observations

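Values that lie outside the comparisons above were chosen after they were seen. miR-2185 measured 394 to 454.4 CPM in the 6-month libraries and 250, 231, 38.2, 22.6 and 26.8 CPM in 36-month replicates 1 to 5. All 36-month libraries were lower, in replicates 1 and 2 by less than in the other 3, and the log2 change of -1.90 (SE 0.73) did not pass the test (adjusted p = 0.0810). Without 36-month replicate 1, the highest of its age, the change was -2.41 and called (adjusted p = 0.0286). Leaving that library out deepens the fall by construction, so this call is no separate support. With DESeq2 miR-2185 was called as well (-1.92, adjusted p = 0.0258). At 24 and 42 months its means were 416 and 466 CPM. In the test of 36 months against the mean of 24 and 42 months miR-2185 was not called. miR-375, of endocrine cells, reached 1730 and 939 CPM in 6-month replicates 2 and 5, 46.1 to 125 CPM in the other 6-month libraries and 35.4 to 305 CPM at 36 months (-2.31, SE 1.07, adjusted p = 0.129).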
